A study of Caenorhabditis elegans with 36 samples.

Results

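After 5 days of rotenone, 2 of 193 tested miRNAs of Caenorhabditis elegans stood below both vehicles, mir-34 and mir-239a, and 0 stood above them. The comparison sets 3 libraries of worms given 100 nM rotenone for 5 days against 6 vehicle libraries of the same time, 3 with 0.1 % DMSO and 3 with 0.1 % H2O. These are 9 of the 36 libraries of the series, chosen by their treatment and time labels. All are small RNA from whole hermaphrodites of N2, the laboratory wild-type strain, and the labels name no mutation or transgene. Rotenone is a plant-derived inhibitor of complex I of the mitochondrial respiratory chain. The labels do not say in which solvent it was given, so neither vehicle alone is known to be its matched control. Times are given as age in the sample labels and as time since treatment in the series title. The series also holds rotenone and DMSO at 6 hours and at 1, 2 and 3 days, and H2O at 1 day. The labels do not state whether replicate libraries are from different cultures. The p-values therefore measure only how far libraries of a group spread, which may be technical. That spread was estimated over all 36 libraries of the series, not from these 9 alone.

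MicroRNAs are short RNAs cut from hairpin precursors. Loaded into Argonaute proteins (ALG-1 and ALG-2 in this worm), they pair through their seed with messenger RNAs and lower their translation or stability. Worm miRNAs time larval development, as lin-4 and the let-7 family do, act in embryos, as the mir-35 and mir-51 families do, and take part in stress resistance and lifespan, as reported for mir-34, mir-71 and mir-239. The values below are reads per hairpin, with both arms together, given as CPM, that is, scaled to a common library total with the trimmed mean of M-values (TMM). The 9 libraries held 4361246 to 6737429 counts each, and 3 counts correspond to 0.445 to 0.688 CPM. These were whole animals, so fewer cells of a type and less miRNA per cell cannot be told apart.

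The lowest 3 of the 9 mir-34 levels were those of the rotenone libraries. mir-34 is the worm member of a conserved family that is a target of p53 in mammals, and it has been linked to the DNA damage response and ageing in worms. It reached 1409, 1585 and 1556 CPM in rotenone, against 1701, 1830.2 and 1876 CPM in DMSO and 1715, 1771 and 1828 CPM in H2O. Rotenone did not overlap the vehicles, and the H2O libraries lay within the range of the DMSO libraries. The mean was 1517 ± 94.3 CPM in rotenone (SD, n = 3) and 1787 ± 69.8 CPM in the vehicles (SD, n = 6). Rotenone over the mean of both vehicles gave a log2 fold change of -0.24 ± 0.045 (SE), a fold of 0.849 with a 95% interval of 0.797 to 0.904 and an adjusted p of 0.00118 by edgeR's quasi-likelihood test.

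The fall of mir-34 also passed the test against each vehicle alone. Against DMSO the log2 fold change was -0.25 ± 0.051 (SE, adjusted p = 0.00432), and against H2O it was -0.22 ± 0.051 (adjusted p = 0.0193). Over 13 alternative fits the call against DMSO was lost in 5, and so was that against H2O. DMSO over H2O gave 0.025 ± 0.051 with an adjusted p of 0.926.

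mir-239a fell by a similar amount. It is 1 of a pair of neighbouring, closely related hairpins, and worms without mir-239 are reported to live longer. Its levels were 2653, 2712 and 2343 CPM in rotenone, against 2994, 3099 and 3121 CPM in DMSO and 3045, 2882 and 3222 CPM in H2O. The highest rotenone library lay below the lowest vehicle library. The mean was 2569 ± 198 CPM in rotenone (SD, n = 3) and 3060.5 ± 116 CPM in the vehicles (SD, n = 6). The log2 fold change was -0.25 ± 0.055 (SE), a fold of 0.839 with a 95% interval of 0.777 to 0.906 (adjusted p = 0.00428). Against DMSO alone it was -0.26 ± 0.062 (adjusted p = 0.0194), and against H2O alone -0.25 ± 0.062 (adjusted p = 0.0311). Over 13 alternative fits the call against DMSO was lost in 8 and that against H2O in 7.

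mir-239b, its partner, showed 1685, 1669 and 1422 CPM in rotenone, against 1909.5, 1856 and 1909 CPM in DMSO and 1840.0, 1703 and 1842 CPM in H2O. Its groups did not overlap either, but the highest rotenone and the lowest vehicle library nearly met. Its log2 fold change of -0.21 ± 0.084 (SE) did not pass the test (adjusted p = 0.200). The split between the pair is uncertain, since the handling of reads that match both hairpins is not given in the sources used here. Their summed level was 4162 ± 344 CPM in rotenone, against 4963 ± 63.5 CPM in DMSO and 4845 ± 242 CPM in H2O (SD, n = 3 each). The ratio of mir-239a to mir-239b ran from 1.57 to 1.65 in rotenone libraries and from 1.57 to 1.75 in vehicle libraries. The third member of this family, mir-238, had a log2 fold change of -0.065 ± 0.051 (adjusted p = 0.649).

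**Figure D1:**
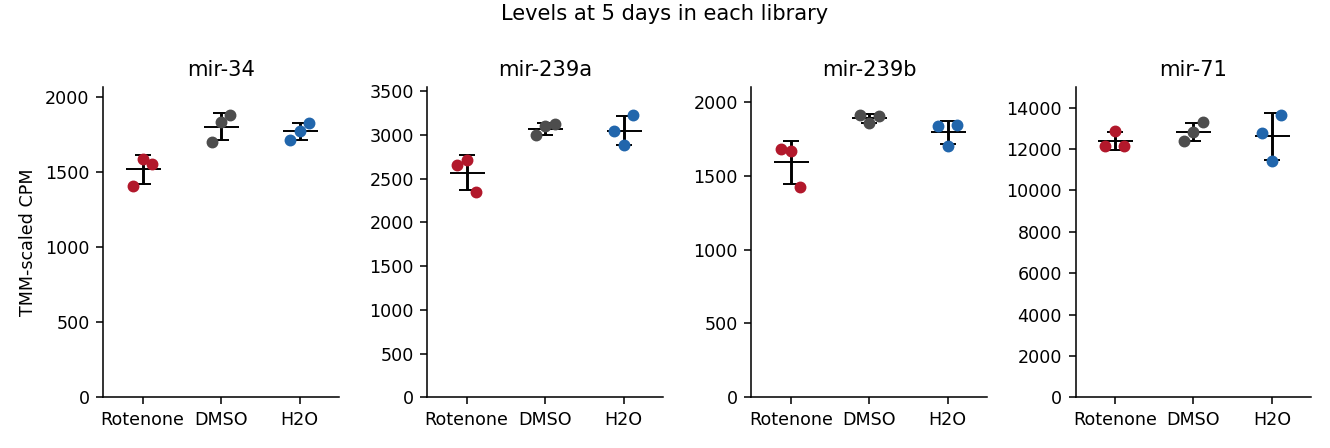
Levels at 5 days, in TMM-scaled CPM on axes that start at 0, with 1 point per library, a bar at each group's mean and whiskers of 1 SD (n = 3). The rotenone points of mir-34, mir-239a and mir-239b lie below all 6 vehicle points, while those of mir-71, which did not pass the test, lie among them.

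The share of tested miRNAs past the threshold was 1.04% against both vehicles, 1.04% against DMSO alone and 1.04% against H2O alone, in each case the same pair. The pair that held against each vehicle alone is therefore also 1.04% of those tested, all lower in rotenone. Sequencing lane was shared within a group: rotenone at 5 days was on lane 3, DMSO on lane 1 and H2O on lane 2, so lane and treatment cannot be told apart within these 9 libraries. A fit with an additive lane term, estimated from the whole series, takes the rotenone effect as equal at the other times. With it the log2 fold change was -0.38 for mir-34 and -0.39 for mir-239a. They were among 35 calls (18.1% of those tested), 13 higher (6.74%) and 22 lower (11.4%). Without a lane term the numbers of calls differed between the other times, but whether the effects were unequal apart from lane was not tested. Over DMSO 2 of 193 miRNAs passed upward and 21 downward at 6 hours, and 20 upward and 12 downward at 1 day. At 2 days 41 passed each way, and at 3 days 16 upward and 8 downward. Rotenone and DMSO were on different lanes at each of these times, so these counts can hold lane differences too. Values with the lane term, here and below, can hold differences between times as well as lane. Without it the calls of mir-34 and mir-239a were both lost by edgeR when the 9 libraries were fitted alone (adjusted p = 0.154 for each). They were also lost when no filter on low counts was applied (adjusted p = 0.0656 for each). That of mir-239a was lost without rotenone replicate 3 (adjusted p = 0.0995). Without H2O replicate 1, 5 miRNAs passed against both vehicles. Against a single vehicle 0 passed with total counts in place of TMM or without rotenone replicate 1, 0 against DMSO without DMSO replicate 3 and 0 against H2O without H2O replicate 3. With DESeq2 size factors 1 passed against DMSO and 2 against H2O, 1 of them higher. Against either vehicle 1 passed without rotenone replicate 3, against DMSO 1 passed without DMSO replicate 2, and against H2O 5 passed without H2O replicate 1.

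No other miRNA passed, and the intervals of most were narrow. At an unadjusted p under 0.05 there were 27 miRNAs, 4 higher and 23 lower. The median log2 fold change over all 193 was -0.043, with 120 of them (62.2%) below 0. When TMM was replaced by DESeq2 size factors or by total counts it was -0.017 or -0.013, with 105 below 0 in each. Among the 136 miRNAs with a mean above 10 CPM, the fold changes ran from 0.778 for mir-1020 to 1.17 for mir-4813, which was named after its value was seen. Their 95% intervals lay within 1.5-fold either way for 133. The half-width of the interval had a median of 1.08-fold for the 52 miRNAs above 1000 CPM, 1.11-fold for the 36 between 100 and 1000 CPM and 1.18-fold for the 48 between 10 and 100 CPM. For the 57 below 10 CPM it was 1.90-fold, so smaller changes were mostly not detectable there. Both called miRNAs were among the 52 above 1000 CPM.

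**Figure D2:**
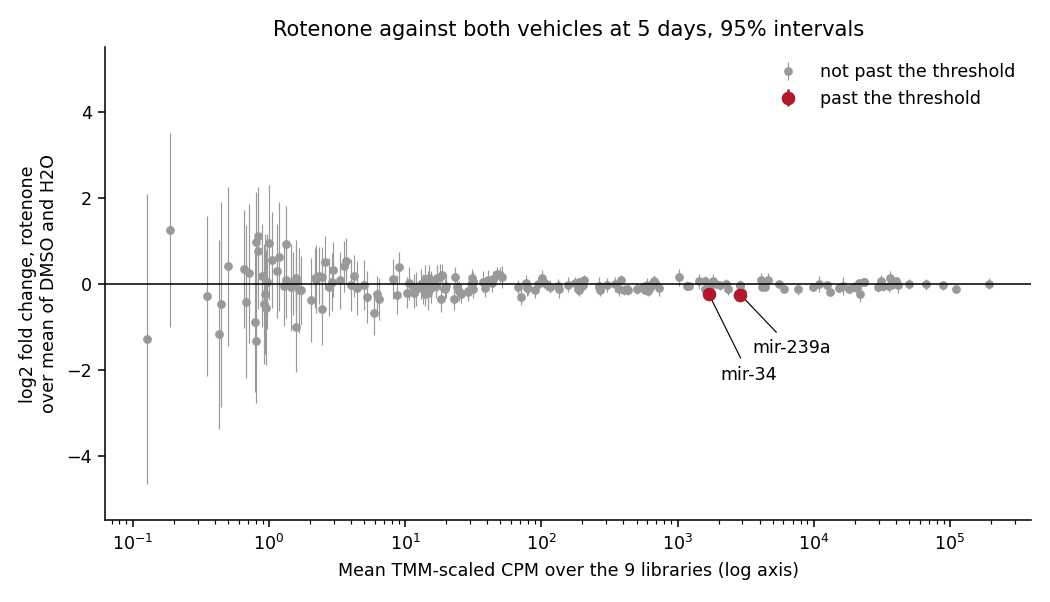
The log2 fold change of rotenone over the mean of both vehicles at 5 days for 193 miRNAs (vertical axis, with 95% intervals) against their mean level over the 9 libraries in TMM-scaled CPM (horizontal log axis). mir-34 and mir-239a, in red, passed the threshold, and the intervals widen below 10 CPM.

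The 9 libraries did not separate by treatment in measures that weight all 193 miRNAs alike, 57 of them below 10 CPM. Small shifts of abundant miRNAs weigh little in such measures. On principal component 1 (23.2% of the variance) the rotenone libraries stood at -2.28, -2.34 and 1.64, within the vehicles' range of -2.84 to 3.93. The root mean square log2 distance over miRNAs had a median of 0.544 between rotenone and DMSO libraries and 0.503 between rotenone and H2O libraries. Between DMSO and H2O libraries it was 0.579. Between libraries of 1 group it was 0.490 in rotenone, 0.624 in DMSO and 0.604 in H2O.

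None of the most abundant miRNAs passed by edgeR without a lane term. The 10 miRNAs with the largest shares took 62.2% to 64.1% of the counts of a library. mir-82, of the bantam-like mir-58 family, took 17.7% ± 0.364 in rotenone and 17.3% ± 0.406 in the vehicles (SD, n = 3 and 6, as for the shares that follow). mir-72 took 9.58% ± 0.156 in rotenone and 10.3% ± 0.138 in the vehicles, a difference larger than either spread. mir-80 took 8.04% ± 0.437 in rotenone and 8.08% ± 0.123 in the vehicles. mir-58a took 6.03% ± 0.341 in rotenone and 5.94% ± 0.211 in the vehicles. mir-235 took 3.49% ± 0.239 in rotenone and 3.13% ± 0.1504 in the vehicles. The shares of mir-57, mir-35, mir-70, mir-90 and mir-65 ran from 3.18% to 4.54% in rotenone and from 3.22% to 4.47% in the vehicles. Of the 10, 0 passed the test, against 1.04% of all miRNAs tested. With the lane term 1 of the 10 passed, against 18.1% of all miRNAs tested. This was mir-70, which fell by 0.24 ± 0.072 on the log2 scale (adjusted p = 0.0165). Without the lane term the log2 fold change of mir-70 was 0.062.

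The smallest p among these 10 was that of mir-72, of a family that shares its seed with mammalian miR-31. It stood at 105611, 102917 and 106198 CPM in rotenone, against 117371, 117111 and 112308 CPM in DMSO and 108724, 121062 and 112180.0 CPM in H2O. The groups did not overlap, with a log2 fold change of -0.13 ± 0.044 and an adjusted p of 0.125. Its relatives mir-73 and mir-74 had log2 fold changes of 0.092 ± 0.082 and 0.086 ± 0.057. So 0 of 3 members passed, against 1.04% of all miRNAs tested.

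Among 8 miRNAs linked to lifespan (the mir-238 family, mir-34, mir-246, mir-71, mir-80 and lin-4), 2 of 8 were lower in rotenone and 0 higher, against 1.04% of all miRNAs tested. The median log2 fold change of the list was -0.11, against -0.043 over all miRNAs tested. Under each of the scalings 8 of 8 values lay below 0, against 62.2% of all miRNAs with TMM. The list was chosen with these results known. With the lane term mir-246 passed as well (adjusted p = 0.0117). mir-246, which is reported to promote lifespan, was at 17263, 17150.1 and 17058 CPM in rotenone, against 18353, 18829 and 17903 CPM in DMSO and 18742, 19551 and 19209 CPM in H2O. These groups did not overlap, and its log2 fold change of -0.13 ± 0.046 gave an adjusted p of 0.125. mir-71, needed for the normal lifespan of worms, had 12138, 12895 and 12146 CPM in rotenone, against 12379, 12826 and 13282 CPM in DMSO and 12797, 11401 and 13622 CPM in H2O. Its rotenone values lay inside the vehicle range (log2 fold change -0.037 ± 0.055, adjusted p = 0.800). lin-4 had -0.10 ± 0.086 and mir-80 -0.039 ± 0.046.

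The stress-associated list overlaps that list in 6 members and adds 4 of the mir-64 family, namely mir-229, mir-66, mir-65 and mir-64. The same 2 of 10 were lower, against 1.04% of all miRNAs tested. All 10 values lay below 0, against 62.2% of all miRNAs, and the median was -0.069, against -0.043 over all. These 4 had log2 fold changes of -0.073 ± 0.041, -0.066 ± 0.052, -0.050 ± 0.067 and -0.052 ± 0.058 in that order. The mir-64 family took 7.40% ± 0.0936 of the counts in rotenone and 7.52% ± 0.213 in the vehicles, and 0 of its 5 members passed.

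In the fit with only a mean per group the developmental timers did not pass at 5 days, and 5 of them passed with a lane term. The lane term takes the rotenone effect as equal at the earlier times. The let-7 values given further below, from the fit without a lane term, were not equal over these times. In the let-7 family, which drives the larva-to-adult transition, 8 of 9 members were tested (mir-265 fell below the filter). Of these 0 were called, against 1.04% of all miRNAs tested, with 7 values below 0 and a median of -0.072. With DESeq2 size factors or total counts 6 values lay below 0. With the lane term 4 of 8 were lower, against 11.4% of all miRNAs: let-7 (-0.40 ± 0.080, adjusted p = 0.000763), mir-84 (-0.37 ± 0.064, adjusted p = 0.000293), mir-48 and mir-795. mir-84 had 5696, 5774 and 5624 CPM in rotenone, against 6071, 6288 and 5945 CPM in DMSO and 6309, 6107 and 6235 CPM in H2O. Its groups did not overlap (log2 fold change -0.11 ± 0.039, adjusted p = 0.125). let-7 itself had 2032, 2025 and 2047 CPM in rotenone, against 2159.9, 2057 and 1985 CPM in DMSO and 2205, 2068 and 2033 CPM in H2O. Its rotenone libraries lay among the vehicles (-0.035 ± 0.049). Its 95% interval of 0.912 to 1.04-fold holds for the fit without a lane term and does not include the value with it. The family's share of counts was 2.68% ± 0.0107 in rotenone and 2.80% ± 0.0906 in the vehicles. In the lin-4 family mir-237 had a log2 fold change of -0.18 ± 0.056 (adjusted p = 0.113), and its groups overlapped. mir-237 passed with the lane term (-0.48 ± 0.092, adjusted p = 0.000631). Without a lane term it passed when H2O replicate 1 was left out (-0.22, adjusted p = 0.0149) and with the replicate number as a block (-0.18, adjusted p = 0.0451).

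The mir-35 family, carried by hermaphrodites with eggs, and the mir-51, mir-58 and mir-44 families had no member past the threshold without a lane term. The share past it over all miRNAs tested was 1.04%, so counts of 0 in lists this small say little about these families. The mir-35 family, made in oocytes and embryos and required for embryonic development, had 0 of 8 members called, with log2 fold changes between -0.048 and 0.15 and a median of 0.046. It took 9.63% ± 0.163 of counts in rotenone, against 9.70% ± 0.414 in DMSO and 9.13% ± 0.443 in H2O (SD, n = 3 each). The mir-51 family, required in embryos, had 0 of 6 called and a median of -0.0084, a sign that turned with DESeq2 size factors (0.018) and with total counts (0.022). The mir-58 family, linked to the growth-regulating TGF-beta pathways, had 0 of 5 tested members called (2 more listed names matched no hairpin) and took 34.4% ± 1.07 of counts in rotenone and 34.01% ± 0.598 in the vehicles. For mir-58a the 95% interval was 0.911 to 1.08-fold and for mir-82 it was 0.913 to 1.1-fold. In the mir-44 family 0 of 4 were called and 4 values lay above 0, with a median of 0.046. With the lane term 2 of 4 were higher, against 6.74% of all miRNAs: mir-44 (0.28 ± 0.071, adjusted p = 0.00576) and mir-45 (0.29 ± 0.072, adjusted p = 0.00576). This pair had nearly equal levels in every library, and their reads may not be separable. With the lane term mir-42 of the mir-35 family (0.57 ± 0.16, adjusted p = 0.0107) and mir-54 of the mir-51 family (0.28 ± 0.081, adjusted p = 0.0112) were higher as well, while without it the log2 fold change of mir-54 was -0.016.

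Markers of single tissues did not pass without a lane term. The neuronal miRNAs lsy-6, mir-124, mir-790 and mir-791 had log2 fold changes of 0.10 ± 0.093, 0.12 ± 0.15, 0.052 ± 0.12 and 0.16 ± 0.14 in that order, 4 of 4 above 0. lsy-6, the switch that makes 1 of a left and right pair of taste neurons unlike the other, had 48.2, 44.3 and 46.2 CPM in rotenone, against 46.7, 43.8 and 43.1 CPM in DMSO and 43.0, 42.3 and 39.9 CPM in H2O, with overlap. mir-1 of muscle averaged 348 ± 33.8 CPM in rotenone and 349 ± 48.3 CPM in the vehicles. mir-60 of the intestine averaged 1867 ± 101 CPM in rotenone and 1794 ± 236 CPM in the vehicles. The other intestinal miRNAs, mir-240 and mir-786, had log2 fold changes of -0.067 ± 0.050 and -0.044 ± 0.078. mir-228 of glia had 17154, 19452 and 21957 CPM in rotenone, against 20168, 22564 and 23073 CPM in DMSO and 21567, 24949 and 26961 CPM in H2O. Its groups overlapped, and the log2 fold change of -0.25 ± 0.092 gave an adjusted p of 0.141. In all 0 of the 9 markers of these tissues passed without a lane term, against 1.04% of all miRNAs tested. With it 2 of 9 passed, lsy-6 (0.46 ± 0.14, adjusted p = 0.0213) and mir-240 (-0.33 ± 0.084, adjusted p = 0.00623), against 18.1% of all miRNAs. Beside these values, the part of tissue composition in the falls of mir-34 and mir-239a was not tested.

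**Figure D3:**
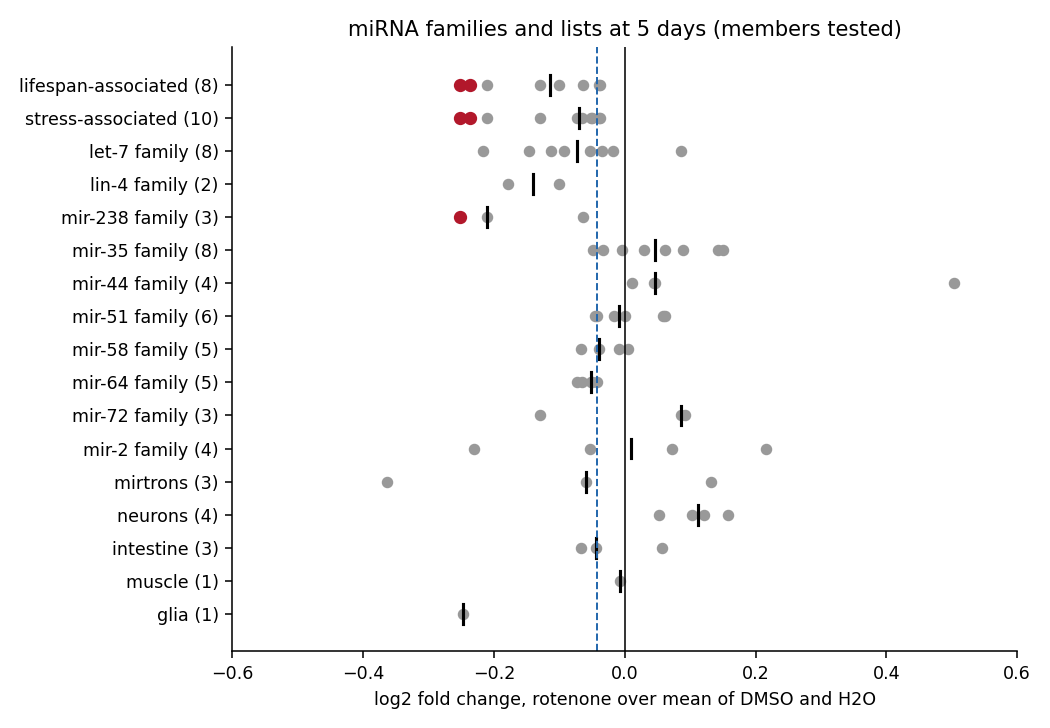
The log2 fold change of rotenone over the mean of both vehicles at 5 days (horizontal axis) for the tested members of 17 families and lists (rows, number tested in brackets). Red points passed the threshold, black ticks are list medians, the dashed line is the median of all miRNAs at -0.043, and 1 rare member, mir-58b, lies outside the axis.

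In TMM-scaled CPM, complete separation of the 3 rotenone from the 6 vehicle libraries was more frequent downward than upward. It was not counted under DESeq2 size factors or total counts, with which 105 log2 fold changes lay below 0, against 120 with TMM. In 16 miRNAs (8.29% of those tested) every rotenone library lay below every vehicle library, and in 1 (0.518%) every one lay above. Besides mir-34 and mir-239a, 14 of the 16 did not pass, with log2 fold changes from -0.36 to -0.092 and adjusted p from 0.0713 to 0.448. The lowest of these adjusted p belonged to mir-259, named after its values were seen. It had 54.6, 69.4 and 59.0 CPM in rotenone, against 75.2, 75.6 and 73.3 CPM in DMSO and 73.9, 72.5 and 81.5 CPM in H2O. mir-245 had 2623, 2809 and 2790.3 CPM in rotenone, against 2913, 3156 and 3033 CPM in DMSO and 3033, 3285 and 3208 CPM in H2O (log2 fold change -0.18 ± 0.053, adjusted p = 0.0813). mir-1020, a mirtron, that is a miRNA cut from a spliced intron, averaged 19.3 ± 0.813 CPM in rotenone and 24.7 ± 1.82 CPM in the vehicles (-0.36 ± 0.12, adjusted p = 0.125). The other 2 tested mirtrons had 0.13 ± 0.11 for mir-62 and -0.060 ± 0.14 for mir-1018. With the lane term mir-1020 was lower (adjusted p = 0.0489) and mir-1018 higher. The miRNA that lay above was mir-799, named after its values were seen, with 10.6 ± 1.18 CPM in rotenone and 8.15 ± 0.877 CPM in the vehicles (0.38 ± 0.17, adjusted p = 0.280).

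The vehicles themselves gave no call. DMSO over H2O at 5 days passed for 0 of 193 miRNAs (0%) by edgeR, with 8 at an unadjusted p under 0.05 and a smallest adjusted p of 0.905. DESeq2 also called 0, with 9 at an unadjusted p under 0.05. The rotenone mean lay below both vehicle means for 87 miRNAs, above both for 44 and between them for 62.

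The rotenone effect at 5 days differed from that at earlier times, in tests of the difference itself. The comparison with 1 day used both vehicles at each time, and those with 2 and 3 days used DMSO alone, and the contrasts share the 5-day libraries. The effect differed between 5 days and 1 day for 31 miRNAs (16.1%), 9 higher at 5 days and 22 lower. It differed from 2 days for 53 (27.5%), 25 higher and 28 lower, a comparison added after the data were seen. It differed from 3 days for 6 (3.11%), 1 higher and 5 lower. Scaling by total counts shifted the median of all differences to 0.038 for 1 day, against -0.071 with TMM, and to 0.083 for 3 days, against -0.038 with TMM. For 1 day it left 22 calls, 14 higher and 8 lower, while DESeq2 size factors left 23, 13 higher and 10 lower. For 3 days total counts left 2 higher and 2 lower, and DESeq2 size factors 2 higher and 4 lower. For 2 days total counts left 30 higher and 21 lower, the libraries of the contrast fitted alone 29 higher and 15 lower, and the fit without DMSO replicate 3 of 2 days 16 higher and 30 lower. For 1 day DESeq2 gave 15 higher and 15 lower, and the libraries of the contrast alone 11 higher and 16 lower. Leaving out 1 library gave 15 calls for 1 day without rotenone replicate 2 of 1 day, 18 without rotenone replicate 2 of 5 days and 19 without DMSO replicate 2 of 5 days. It gave 3 calls for 3 days without rotenone replicate 3 of 3 days or rotenone replicate 1 of 5 days. With no filter on low counts 20 passed for 1 day. Within each of these times rotenone and its vehicles were also on different lanes, so lane and time-by-treatment differences cannot be told apart.

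The mir-34 effect at 5 days differed from that at each earlier time tested. Its log2 fold change over DMSO was -0.12 ± 0.051 at 6 hours, 0.27 ± 0.051 at 1 day, 0.22 ± 0.051 at 2 days, 0.16 ± 0.051 at 3 days and -0.25 ± 0.051 at 5 days. It was past the threshold upward at 1, 2 and 3 days and downward at 5 days, and not past it at 6 hours. The effect at 5 days minus that at 1 day was -0.53 ± 0.063 (adjusted p = 8.07e-08). Minus that at 2 days it was -0.46 ± 0.072 (adjusted p = 8.85e-06), and minus that at 3 days -0.41 ± 0.072 (adjusted p = 0.000168). The difference from 6 hours was not tested. The level of mir-34 itself was highest at 5 days. Rotenone at 5 days, at 1517 ± 94.3 CPM, lay above every library of the earlier times, whose group means ran from 638 CPM in H2O at 1 day to 1145 CPM in rotenone at 3 days. Only the vehicles at 5 days stood higher, at 1802 ± 90.9 CPM in DMSO and 1771 ± 56.5 CPM in H2O, which did not differ beyond their spread.

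mir-239a was also at its highest at 5 days. Its group means were 706 CPM in rotenone and 754 CPM in DMSO at 6 hours. At 3 days they were 1476 CPM in rotenone and 1588 CPM in DMSO. Its log2 fold change over DMSO was -0.095 at 6 hours, -0.13 at 1 day, 0.25 at 2 days, -0.11 at 3 days and -0.26 at 5 days, each with an SE of about 0.062 on the log2 scale. It passed upward at 2 days and downward at 5 days. The effect at 5 days minus that at 2 days was -0.50 ± 0.088 (adjusted p = 6.17e-05). The differences from 1 day (-0.20 ± 0.077, adjusted p = 0.0721) and from 3 days (adjusted p = 0.348) did not pass.

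**Figure D4:**
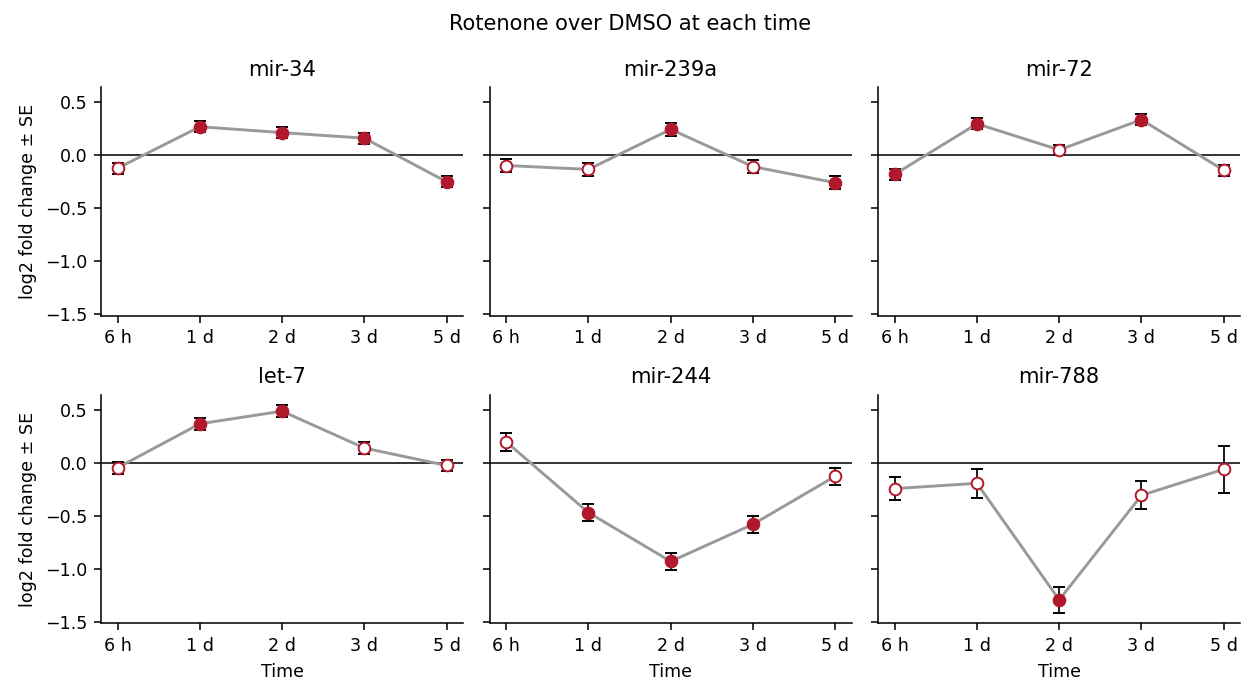
The log2 fold change of rotenone over DMSO at 6 hours and at 1, 2, 3 and 5 days (horizontal axis), with whiskers of 1 SE from the fit of all libraries. Filled points passed the threshold at that time and open points did not: mir-34 is filled above 0 at 1, 2 and 3 days and below 0 at 5 days.

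Several abundant miRNAs that had been higher with rotenone at 1 day were at vehicle level or slightly below it at 5 days. mir-72 had a log2 fold change over DMSO of -0.18 at 6 hours, 0.30 at 1 day, 0.053 at 2 days, 0.34 at 3 days and -0.14 at 5 days, each ± 0.050. Its effect at 5 days minus that at 1 day was -0.47 ± 0.062 (adjusted p = 3.95e-07), and minus that at 3 days -0.48 ± 0.071 (adjusted p = 1.42e-05). let-7 gave -0.044, 0.37, 0.49, 0.14 and -0.023 over the same times, each ± 0.056 or less. The difference between 5 days and 1 day was -0.35 ± 0.068 for let-7 (adjusted p = 0.000347), -0.29 ± 0.055 for mir-84 (adjusted p = 0.000347) and -0.48 ± 0.092 for mir-795 (adjusted p = 0.000347). In the let-7 family 6 of 8 members differed downward between 5 days and 1 day, against 11.4% of all miRNAs tested. With DESeq2 size factors or total counts 3 of 8 did, against 5.18% and 4.15% of all. Between 5 and 2 days 5 of 8 differed downward, against 14.5% of all, and between 5 and 3 days 0 of 8, against 2.59%.

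Other miRNAs had been lower at the earlier times. mir-244 gave log2 fold changes over DMSO of 0.20, -0.47, -0.93, -0.58 and -0.13 from 6 hours to 5 days, each with an SE near 0.083, and was past the threshold downward at 1, 2 and 3 days. At 5 days it had 2279, 2422 and 1958 CPM in rotenone, against 2496, 2521 and 2246 CPM in DMSO and 2380.2, 2454 and 2288 CPM in H2O, with overlap. Its effect at 5 days stood 0.80 ± 0.12 above that at 2 days (adjusted p = 5.86e-06) and 0.45 ± 0.12 above that at 3 days (adjusted p = 0.0206). The call against 3 days was lost without any 1 of DMSO replicate 1, rotenone replicate 2 or rotenone replicate 3 of 3 days, or DMSO replicate 3, rotenone replicate 1 or rotenone replicate 2 of 5 days (adjusted p 0.0572 to 0.0892). mir-788, named after its values were seen, was at -1.29 ± 0.12 at 2 days and -0.058 ± 0.22 at 5 days. Its DMSO libraries of 2 days ran from 60.4 to 98.9 CPM, against DMSO means of 29.5 CPM at 1 day and 43.5 CPM at 3 days. The rotenone mean of mir-788 at 2 days was 31.8 CPM. For mir-244 too the DMSO libraries of 2 days spread widely, from 2755 to 3955 CPM. The neuronal list had 3 of 4 members with a higher effect at 5 than at 2 days, against 13% of all miRNAs, among them lsy-6 with a difference of 0.77 ± 0.14 (adjusted p = 0.0001). The other miRNAs among those that differed between 5 and 3 days were mir-87 (-0.43 ± 0.096, adjusted p = 0.00512, and 0.105 with total counts), mir-245 (-0.31 ± 0.086, adjusted p = 0.034) and mir-39 of the mir-35 family (-0.38 ± 0.11, adjusted p = 0.0487). With DESeq2 size factors or total counts 0 of 8 members of the mir-35 family passed in this comparison, so the call of mir-39 was lost.

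Against both vehicles at 1 day, 35 miRNAs (18.1%) had passed, 22 higher and 13 lower in rotenone. Of the 22 higher, 18 had a log2 fold change below 0 at 5 days and 4 above, with a median of -0.067 at 5 days and 0.28 at 1 day. Of the 13 lower, 7 were above 0 at 5 days and 6 below, with a median of 0.038 at 5 days and -0.23 at 1 day. The effect itself differed between the times for 18 of the 22 and 8 of the 13. The 2 lists were chosen by their 1-day values, so the 5-day medians beside them are a description.

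**Figure D5:**
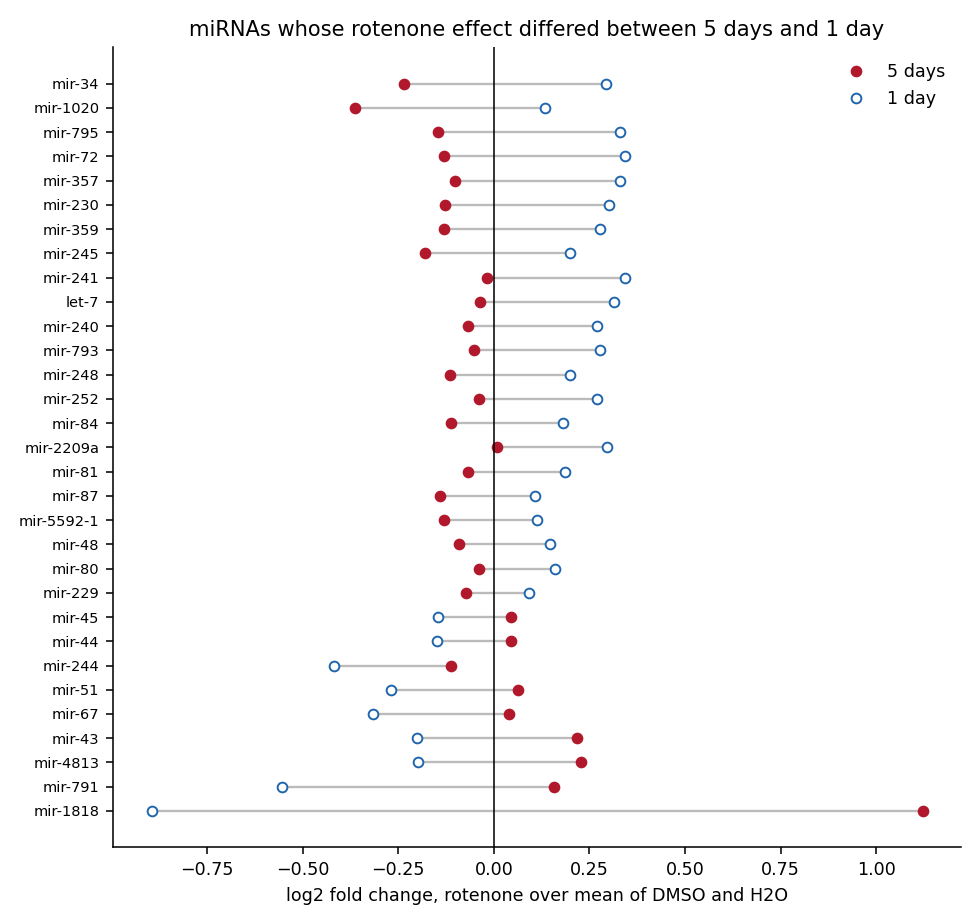
The log2 fold change of rotenone over the mean of both vehicles (horizontal axis) at 5 days (filled red) and at 1 day (open blue) for the 31 miRNAs whose effect differed between these times, 1 per row. For 22 miRNAs, with mir-34 at the top, the 5-day value lies left of the 1-day value, and for 9 it lies right.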

How the data were processed

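Raw read counts per miRNA hairpin were deposited by the authors as 1 table of 250 hairpins over 36 libraries, with both arms together. Per the labels' protocols, a TruSeq kit for small RNA was used for the libraries. The submitters' processing notes name BWA 0.7.12-r1039, SAMtools 1.3.1-9, Trimmomatic 0.36 and bcl2fastq 1.8.4. Which build and annotation were used, and how multiply matching reads were handled, is not given in the sources used here. No molecular identifiers are named, so statements on depth cover counting error only.

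In R 4.3.3, filterByExpr (minimum count 10) kept 193 of the 241 hairpins with counts. The 57 of 250 left out, 9 of them at 0 in every library, held 0.00073% of all counts. All 36 libraries entered 1 edgeR 4.0.16 quasi-likelihood fit with a mean per group and TMM scaling (factors 0.854 to 0.939 at 5 days), with 24 residual and 12.6 prior degrees of freedom. The contrast took rotenone minus the mean of DMSO and H2O. P-values were adjusted by Benjamini-Hochberg over the 193, with a threshold of 0.05. The procedure was tested on simulated counts, drawn independently for each library with no lane effect added. That test therefore does not bear on lane or on how the replicates were made. No 2 libraries of a 5-day group agreed within sampling noise (chi-square per degree of freedom 22.9 to 93.4).

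The comparison, lists and naming rule were chosen with earlier results of these data known. Named are the 10 largest rises and falls among calls without overlap, called list members, in each list up to 4 members by smallest p, the 10 largest shares and the 5 smallest p of each difference between times. Lists are described by counts and medians, with no set test. Alternatives were other scalings, DESeq2 1.42.0, no filter, a lane term, a block for replicate number, only the libraries compared, the vehicles as 1 group, and each library left out. The fit on the libraries of each time difference alone was added after the data were seen.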

Additional observations from a re-analysis of the deposited data

Results flagged for a closer look

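The effect of rotenone at 5 days differed from that at other times, by the interaction test in edgeR, for 31 miRNAs against 1 day, 6 against 3 days and 53 against 2 days. mir-34 was among the calls of each of these tests.

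In the 6 vehicle libraries of 5 days, the mir-239b level of H2O replicate 2 (1703 CPM) stood apart from the other vehicle libraries, its gap over the group's range being 0.6631, above Dixon's 95% critical value for 6 samples. Of 17 such groups examined this was the 1 that passed, and chance passes about 1 in 20.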

How the results depend on the processing

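Of the 2 calls against both vehicles, 0 were left with no filter, with the 9 libraries of 5 days alone (23 at an unadjusted p under 0.05) and with the vehicles as 1 group of 6 in those 9 libraries. DESeq2 gave 4, adding mir-245 and mir-259, and the lane term 35. Leaving out 1 library gave 1 to 5. Against DMSO the 2 calls became 1 with DESeq2 size factors, 0 with total counts, 0 with no filter, 0 with the 9 libraries and 37 with the lane term, with 0 to 3 over the left-out libraries. Against H2O they became 0 with total counts, 0 with no filter, 0 with the 9 libraries, 4 with DESeq2 and 24 with the lane term, with 0 to 5 over the left-out libraries. The 2 that held against each vehicle became 1 with DESeq2 size factors, 0 with total counts, 0 with no filter and 0 with the 9 libraries, with 0 to 3 over the left-out libraries. The causes were not tested.

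mir-34 against both vehicles stayed past the threshold in 15 of 18 alternatives (log2 fold change -0.38 to -0.19, adjusted p 1.43e-06 to 0.154) and mir-239a in 14 of 18 (-0.39 to -0.19, adjusted p 0.00239 to 0.154). Both stayed below 0 in every alternative run. The difference between 5 days and 1 day passed for 20 miRNAs with no filter and for 15 to 33 over the left-out libraries, and that between 5 and 3 days for 3 to 9. Fitted on their own libraries, these comparisons gave 27 calls for 1 day (23 shared with the 31), 5 for 3 days (4 shared with the 6) and 44 for 2 days (40 shared with the 53). The mir-34 difference passed in 24 of 24 alternatives for 1 day (-0.57 to -0.42) and 18 of 18 each for 2 and 3 days. The mir-244 difference from 3 days was lost in 6 of 18 and that of mir-87 in 1. DMSO against H2O gave 0 calls in every alternative run. The lane term was not run for it, for the count held against each vehicle or for differences between times.

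With the replicate number as a block, 4 miRNAs passed against both vehicles, adding mir-237 and mir-259, and 8 against H2O. Whether the numbers pair the libraries is not settled by their correlations. Same-numbered pairs correlated at -0.289 to 0.112, and 5 of 9 libraries correlated best with a library of their own number.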
